A study of Mus musculus with 11 samples.

Results

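The erythroid miRNAs mmu-miR-451, mmu-miR-144 and mmu-miR-486 (miR-451, miR-144 and miR-486 from here on) were measured in mouse mammary tissue as 3 of the 334 mouse miRNAs on a custom array, and were chosen by name and not by level. Each miRNA had 4 spots. The arrays carried RNA from normal mammary glands of late-pregnant females of 3 strain backgrounds, FVB (n = 2), Balbc (n = 3) and FVB129B6 (n = 3), which carried no transgene, and from primary mammary tumors of C3TAg females (n = 3) on the FVB background. Their transgene joins the SV40 T/t-antigens to the rat C3(1) promoter, whose activity is not limited to mammary epithelium. The labels give no age, and nothing in them says that each array is a separate animal: Balbc replicates 2 and 3 are titled M2_2L and M2_2R, which could be glands of 1 mouse. The p-values therefore measure only the spread between these samples.

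Red cells carry a small and unusual set of miRNAs. miR-144 and miR-451 are cut from one primary transcript that the erythroid factor GATA1 switches on as red cell precursors mature, and miR-451 is made by the slicer activity of the Argonaute protein Ago2 instead of by Dicer. miR-451 stays in circulating red cells, which have no nucleus, so that it is among the brightest miRNAs of whole blood and is used in plasma work, against the stable miR-23a, as a sign of red cell RNA. miR-486 lies within Ank1, the gene of a protein of the red cell skeleton, and is abundant in red cells and also in striated muscle.

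The mature sequences of the pair that share a transcript are shown because their probes must tell them from all other miRNAs. They are written 5′ to 3′ from RefSeq (GRCm38.p6), with bases 2 to 8, the seed, in capitals.
miR-451a: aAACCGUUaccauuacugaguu
miR-144-3p: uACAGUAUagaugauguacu
miR-451a lies at chr11:78073186-78073207 and miR-144-3p at chr11:78073047-78073066, both on the plus strand. The hairpins of Mir144 and Mir451a are separated by 99 bases. Neither seed occurs at the same place in any other of the 1738 mature mouse sequences of the table. The probe of miR-451 is complementary to all 22 bases, and that of miR-144 to all 20 bases and 2 more. In the capture part of the probe, the nearest other mouse probe was 9 base edits away for miR-451, 7 for miR-144 (miR-101a) and 8 for miR-486.

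A level is the log2 green signal of a miRNA over the median of its array, averaged over its spots, so that 0 is the median mouse spot. The 8 gland arrays shared 1 slide, on which strain went with position: column 1 held FVB129B6 alone, column 3 Balbc alone and column 4 FVB alone, and column 2 held FVB129B6 replicate 3 and Balbc replicate 1. FVB and its column cannot be told apart, and the part of position in the strain differences was not tested. The 3 tumor arrays came from a different slide, read by another version of the program. Brightness differed by strain, with a median green intensity of 245.5 and 188.5 for FVB, 508 to 583 for Balbc, 520.5 to 671.5 for FVB129B6 and 125 to 170 for the tumors. Every one of the 32 gland spots of each of the 3 miRNAs was well above background, and the 4 spots of an array lay within 0.19 of each other for miR-451, 0.43 for miR-144 and 0.25 for miR-486. On the tumor arrays the spots spread over up to 1.72, 2.61 and 2.94. With 2 or 3 arrays a group, precision is limited by their number.

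In the green channel, miR-451 was highest in FVB, lower in Balbc, lower again in FVB129B6 glands, and not well above background in tumors. Its level was 9.50 and 9.57 on the FVB arrays, 8.19, 8.66 and 7.60 on the Balbc arrays, and 6.76, 6.76 and 7.33 on the FVB129B6 arrays. The arrays of the 3 strains did not overlap. The red channel did not keep this order: there the log2 signal over the array's red median averaged 8.11 in FVB, 8.29 in Balbc and 8.24 in FVB129B6 glands. What RNA the red channel held was not tested. By brightness among the 334 miRNAs, miR-451 was first and second on the FVB arrays, in places 5, 3 and 13 on the Balbc arrays and in places 26, 25 and 17 on the FVB129B6 arrays. Fewer red cells and less of the miRNA per red cell cannot be told apart in RNA of a whole gland.

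miR-144, its partner on the transcript, was dimmer throughout, at places 128 to 179. Its level was 1.79 and 1.41 in FVB, 1.00, 1.29 and 0.26 in Balbc, and -0.08, -0.63 and 0.54 in FVB129B6 glands. The FVB arrays lay above all others, and the Balbc and FVB129B6 arrays overlapped. miR-486 had levels of 3.67 and 4.35 in FVB, 3.70, 3.91 and 3.11 in Balbc, and 1.99, 2.13 and 2.41 in FVB129B6 glands, at places 79 to 113. Here FVB and Balbc overlapped, and all FVB129B6 arrays lay below both. Arrays without overlap were common on this slide: they held for 58.2% of the 261 miRNAs tested between Balbc and FVB, for 64.4% between FVB129B6 and FVB and for 31.4% between Balbc and FVB129B6.

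**Figure D1:**
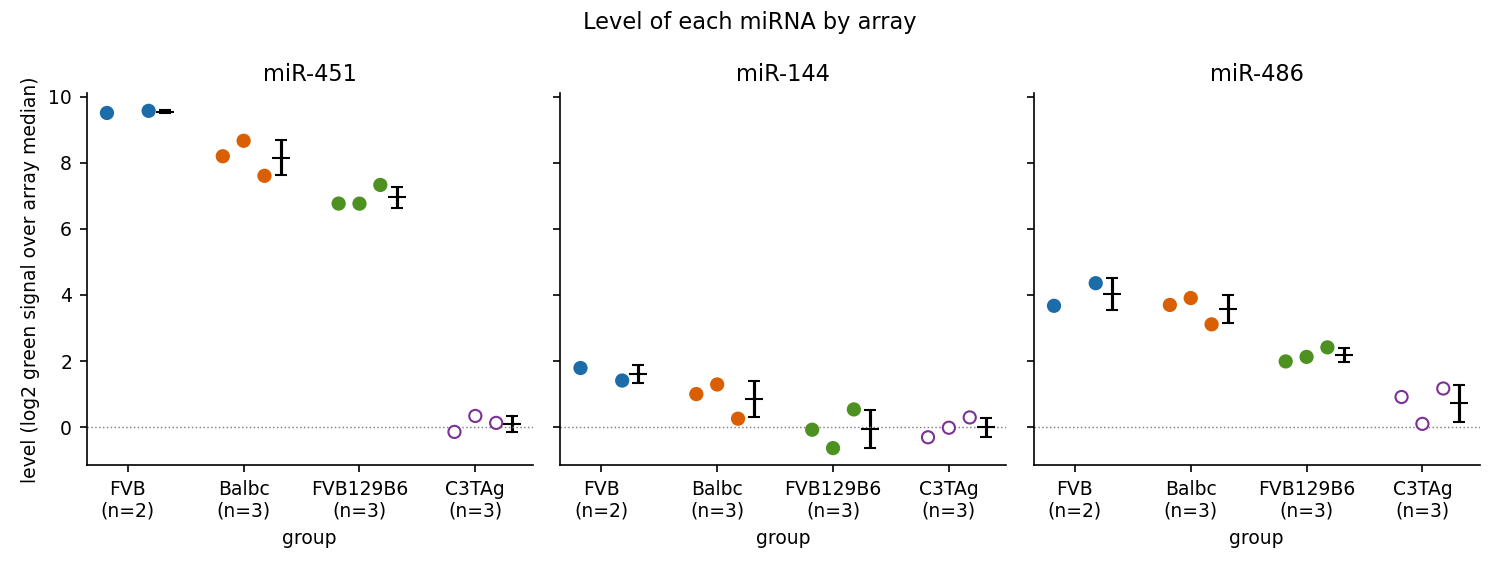
Level of miR-451, miR-144 and miR-486 (log2 green signal over the array median) on each array, by group; filled points are well above background, open points are not, and the bars give the mean and SD. miR-451 steps down from 9.53 in FVB to 8.15 in Balbc and 6.95 in FVB129B6, and all 9 tumor points are open.

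All 3 miRNAs were called lower in FVB129B6 than in FVB glands, for miR-144 only under some scalings. miR-451 fell from 9.53 ± 0.046 (SD, n = 2) in FVB to 6.95 ± 0.33 (SD, n = 3), a difference of -2.59 (standard error 0.32), or 6.0-fold, with an adjusted p of 0.00275 from limma with Benjamini-Hochberg adjustment over 261 miRNAs. It was the lowest of all 261 differences in this contrast. miR-486 fell by 1.84 (standard error 0.31, adjusted p = 0.00380, limma), from 4.01 ± 0.48 (SD, n = 2) to 2.18 ± 0.22 (SD, n = 3). miR-144 fell by 1.66 (standard error 0.41, adjusted p = 0.0151, limma), from 1.60 ± 0.27 (SD, n = 2) to -0.06 ± 0.59 (SD, n = 3). All 3 were thus called lower, where 31.4% of the miRNAs tested were, and the median of the 3 differences was -1.84 beside -0.39 over all miRNAs tested. The FVB arrays were the dimmest of the slide, and the scaling set that last value: it was -0.03 under the 75th percentile as scale, and 1.02 with no scaling, an alternative chosen after seeing the data. The calls over all miRNAs tested, 21 higher and 82 lower here, became 40 higher and 43 lower under the 75th percentile. Relative to the median of all miRNAs tested, the differences were -2.20 for miR-451, -1.45 for miR-486 and -1.27 for miR-144. miR-451 was called lower under all 20 alternatives, with differences from -2.77 to -1.17. miR-144 lost its call without FVB replicate 1 (-1.47, adjusted p = 0.0648, limma), with normexp, another background correction (-0.70, adjusted p = 0.0516), when scaled on the miRNAs detected on every array (-1.13, adjusted p = 0.0785) and with no scaling (-0.24, adjusted p = 0.586). miR-486 lost its call with no scaling alone (-0.42, adjusted p = 0.208, limma).

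Between Balbc and FVB glands only miR-451 was called, lower in Balbc, while 32.2% of the miRNAs tested were called lower and 5.75% higher there. Its level was 8.15 ± 0.53 (SD, n = 3) in Balbc, a difference of -1.38 (standard error 0.32, adjusted p = 0.0145, limma), or 2.61-fold, and -0.90 relative to the median of -0.48 over all miRNAs tested. That call depended on the scaling and on 1 array. It was lost under the 75th percentile (-0.95, adjusted p = 0.0598), under quantile normalization (-0.73, adjusted p = 0.125), under normexp (-0.66, adjusted p = 0.0960, all limma), and without FVB replicate 2 (-1.35, adjusted p = 0.0570). miR-144 differed by -0.75 (95% interval -1.70 to 0.20) and miR-486 by -0.44 (95% interval -1.15 to 0.27), and neither was called. For miR-486 the sign turned with the scaling: it was 0.42 with normexp and 0.91 with no scaling. The directions of all calls turned too, with 15 higher and 84 lower under the array median but 31 higher and 16 lower under the 75th percentile.

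Between Balbc and FVB129B6 glands, whose arrays were similarly bright, all 3 miRNAs were higher in Balbc under every scaling, and miR-486 alone was called. Only 1.15% of the miRNAs tested were called higher in Balbc here, that is 3 of 261. miR-486 was higher by 1.39 (standard error 0.27, adjusted p = 0.0332, limma), or 2.63-fold. This call was lost when scaled on the miRNAs detected on every array (1.32, adjusted p = 0.0549), with normexp (1.37, adjusted p = 0.0734) and with the replicate number as a block (1.39, adjusted p = 0.0514, all limma). It was also lost without any one of FVB129B6 replicates 1, 2 and 3, Balbc replicates 1 and 2 and FVB replicate 2, with adjusted p-values from 0.0554 to 0.183 (limma). miR-451 was higher by 1.20 (standard error 0.29, adjusted p = 0.0683, limma) and was called without Balbc replicate 3 (1.48, adjusted p = 0.0392). miR-144 was higher by 0.91 (95% interval 0.06 to 1.76, adjusted p = 0.207, limma). The median of the 3 differences was 1.20, beside 0.03 over all miRNAs tested. In slide column 2, which held 1 array of each, the levels were 8.19 in Balbc and 7.33 in FVB129B6 for miR-451, 1.00 and 0.54 for miR-144, and 3.70 and 2.41 for miR-486.

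**Figure D2:**
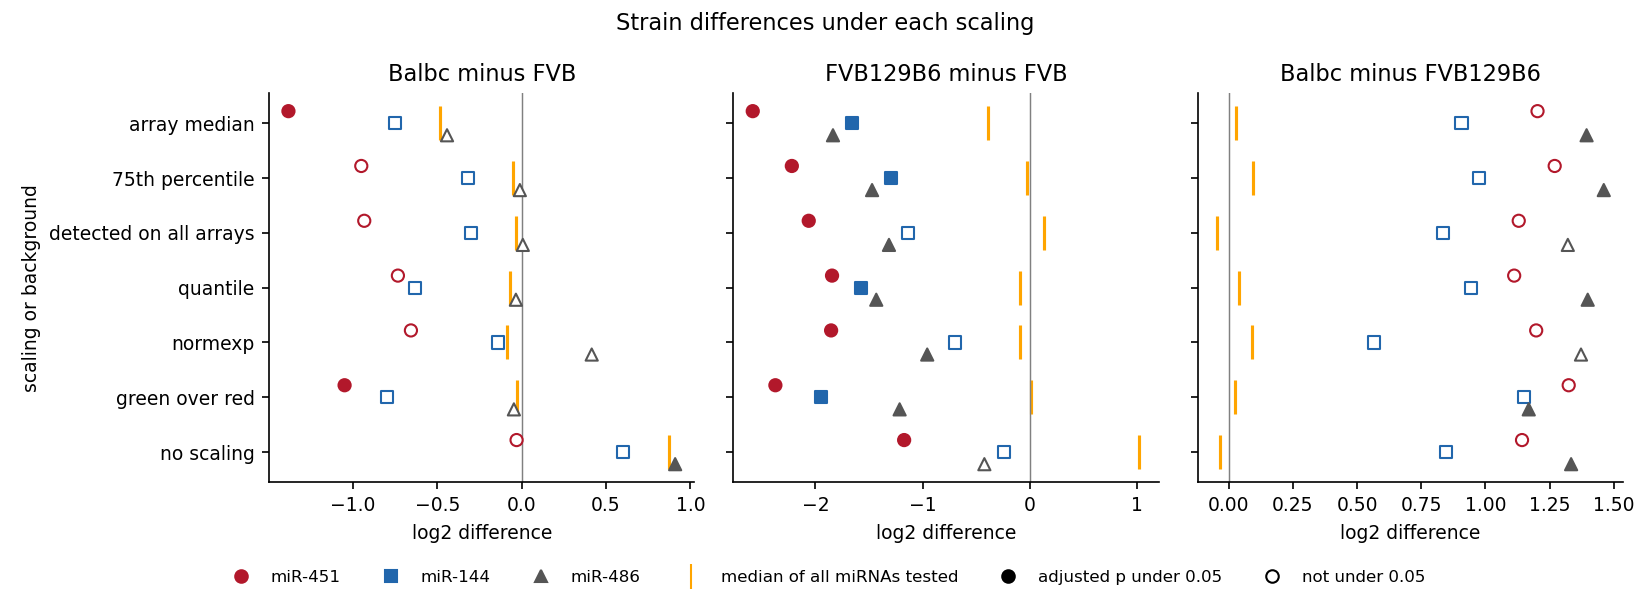
Log2 difference of the 3 miRNAs (x axis) between each pair of strains under 7 ways of scaling the arrays or correcting their background (y axis); filled symbols have an adjusted p under 0.05 (limma) and the orange bars mark the median of all 261 miRNAs tested. In the middle panel miR-451 is filled and left of the median in every row, and in the left panel its place against 0 moves from -1.38 to -0.03.

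The ratio of miR-451 to miR-23a within an array is the same under any scaling that subtracts 1 value per array. miR-23a, which is low in red cells and made in many other cells, was itself brighter in FVB glands, at 7.85 ± 0.20 (SD, n = 2), than in Balbc glands, at 7.30 ± 0.090 (SD, n = 3), and FVB129B6 glands, at 7.24 ± 0.14 (SD, n = 3). The log2 ratio was 1.51 and 1.86 on the FVB arrays, 0.94, 1.26 and 0.36 on the Balbc arrays, and -0.34, -0.47 and -0.07 on the FVB129B6 arrays. The strains kept the order FVB, Balbc, FVB129B6 with no overlap. Permuting the strain labels exactly in all 560 ways gave p = 0.00714 (one-sided in F; the smallest possible p is 0.00357). Without each array in turn the exact p ranged from 0.00952 to 0.0429. Without either FVB array 1 sample of that strain is left, here and in the limma fits, and it is assumed to vary like the other strains. Quantile normalization and green over red, which change such ratios and were added after seeing the data, gave exact p-values of 0.00714 and 0.0107 by the same permutation. Ratios to miR-23a that set all 3 strains apart in this way were found for 8.46% of the 260 miRNAs tested, miR-451 among them. The ratio of miR-144 to miR-23a overlapped between Balbc and both other strains. That of miR-486 overlapped between FVB and Balbc, with all FVB129B6 arrays below them.

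The 3 miRNAs did not keep one proportion. The log2 ratio of miR-451 to miR-486 was 5.83 and 5.21 in FVB, 4.50, 4.76 and 4.49 in Balbc, and 4.77, 4.63 and 4.91 in FVB129B6 glands. Both FVB arrays lay above the other 6. The ratio of miR-451 to miR-144 was 7.71 and 8.16 in FVB, 7.19 to 7.37 in Balbc and 6.79 to 7.39 in FVB129B6 glands, again highest in FVB. miR-451 had the lowest of the 261 differences in FVB129B6 against FVB and the 18th lowest in Balbc against FVB. Its mean ratio to most other miRNAs was thus higher in FVB too, and is not particular to miR-144 and miR-486. How many miRNAs give ratios without overlap was not counted, and these ratios were not tested.

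**Figure D3:**
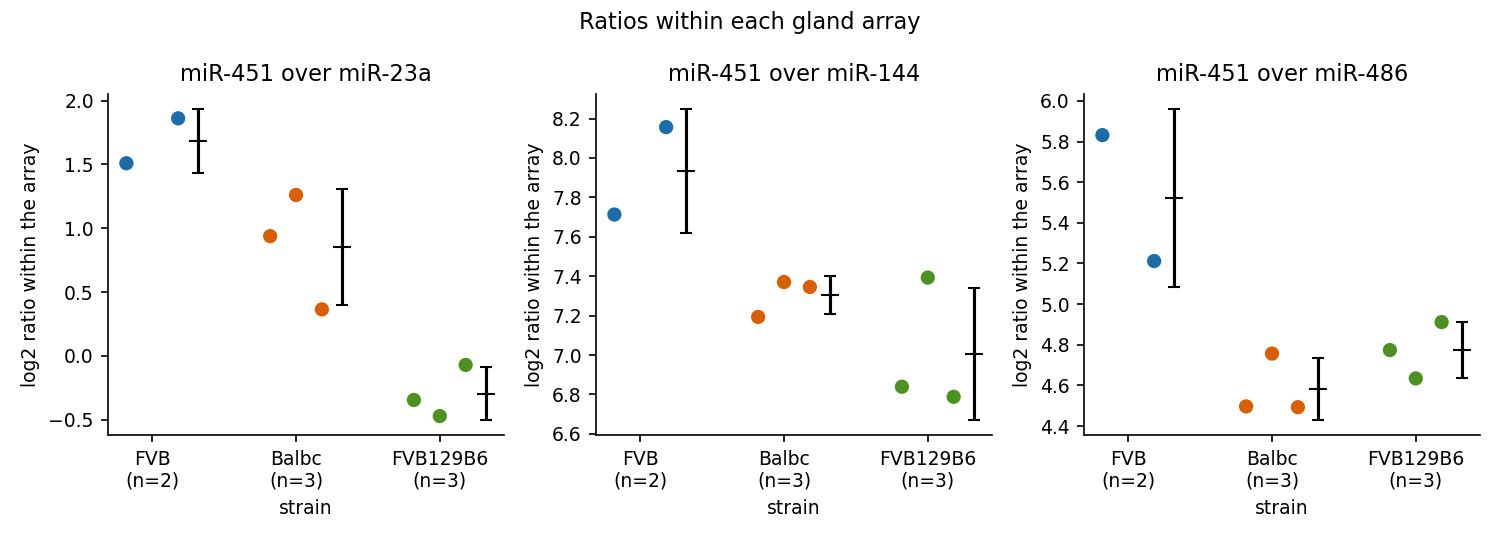
Log2 ratio of miR-451 to miR-23a, miR-144 and miR-486 within each gland array (y axis), by strain; points are arrays and bars the mean and SD. The ratio to miR-23a separates all 3 strains, from -0.47 to 1.86, and the ratios to miR-144 and miR-486 are highest on the FVB arrays.

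Over single gland arrays the 3 miRNAs rose and fell together. Pearson's r over the 8 arrays was 0.942 for miR-451 and miR-144 (Spearman's rho 0.952), 0.928 for miR-451 and miR-486 (rho 0.905) and 0.867 for miR-144 and miR-486 (rho 0.810). Exact permutation p-values of r were 0.000818, 0.00188 and 0.00769, or 0.00246, 0.00283 and 0.00769 after Benjamini-Hochberg adjustment over the 3 pairs, and those of rho 0.00114, 0.00456 and 0.0218 (adjusted 0.00342, 0.00684 and 0.0218). Without the 2 arrays farthest from the median r was 0.934, 0.980 and 0.918. The arrays share a scale and fall by strain. With strain means removed r was 0.868, 0.811 and 0.515, with exact permutation p-values within strains of 0.0417, 0.0278 and 0.236, of which none passed adjustment over the 3 pairs (0.0625, 0.0625 and 0.236).

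**Figure D4:**
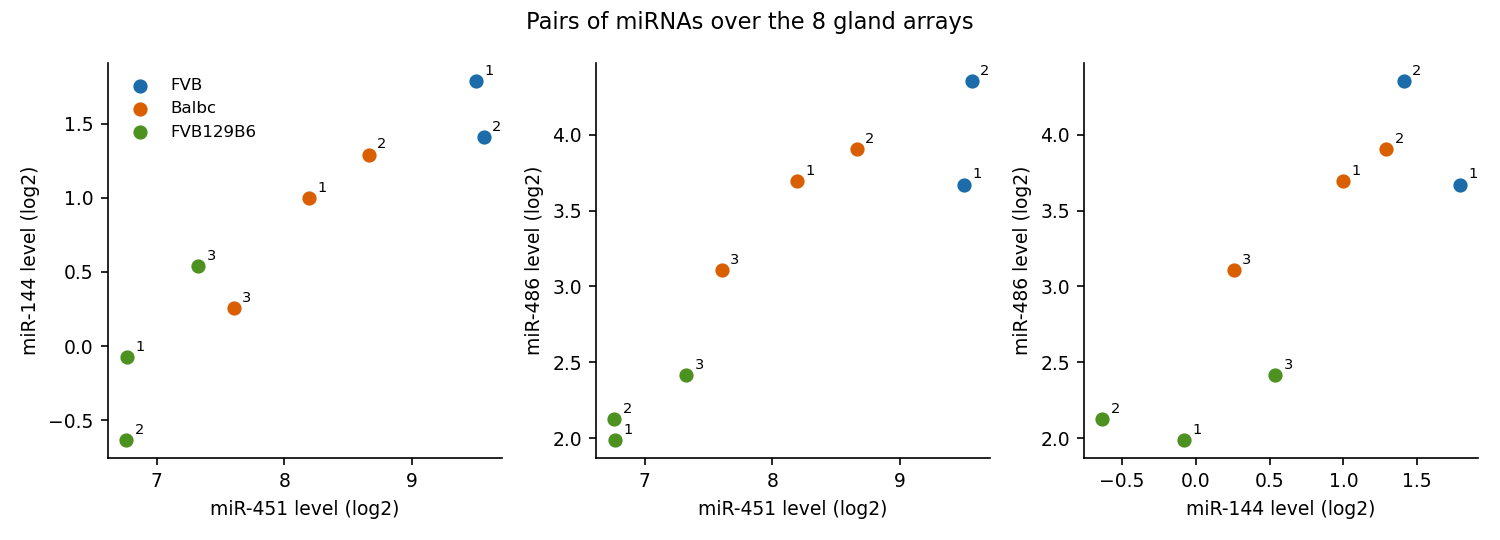
Levels (log2) of each pair of the 3 miRNAs on the 8 gland arrays, colored by strain and numbered by replicate. In the panel of miR-451 against miR-144 the points run from FVB129B6 replicate 2 at 6.76 and -0.63 to the FVB arrays at 9.50 and 9.57.

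By likeness of pattern over the 8 gland arrays, the 5 miRNAs closest to miR-451 were miR-185 (Pearson's r 0.977), miR-186 (0.962), miR-324-5p (0.960), miR-22 (0.948) and miR-144 (0.942). Those closest to miR-144 were miR-324-5p (0.951), miR-451 (0.942), miR-361 (0.926), miR-189 (0.924) and miR-425 (0.917). Those closest to miR-486 were miR-451 (0.928), miR-671 (0.915), miR-185 (0.909), miR-339 (0.881) and miR-144 (0.867). The median r with all 260 other miRNAs tested was 0.44 for miR-451, 0.42 for miR-144 and 0.34 for miR-486, and 51, 20 and 13 of them had r above 0.8.

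Other miRNAs that are abundant in red cells are common in many tissues. Of the 7 listed (miR-16, miR-15b, miR-25, miR-92, miR-185, miR-22 and miR-191), 3 fell and 0 rose in Balbc against FVB, where 32.2% of all miRNAs tested were called lower, and 3 fell and 0 rose in FVB129B6 against FVB, where 31.4% were, so that neither count of 7 stands apart from those shares. These were miR-22, miR-25 and miR-185 in both contrasts, which share the FVB arrays. The medians of the list were -0.64 and -0.67, beside -0.48 and -0.39 over all miRNAs tested and -0.75 and -1.84 for the 3 erythroid miRNAs, and this difference between the lists was not tested. Under the 75th percentile 0 and 2 of the 7 were called lower, and with no scaling 6 and 5 were called higher. With no filter on dim miRNAs, where 191 of 334 were called in either direction, 5 were called lower in FVB129B6. Without Balbc replicate 2, miR-191 (-0.72) and miR-16 (-0.62) were also called lower in FVB129B6. In Balbc, miR-185 lost its call without FVB129B6 replicate 1 or 2, without Balbc replicate 1 or 3 and with the replicate block. miR-25 lost it there without FVB129B6 replicate 1 or any Balbc array, with M2_2L and M2_2R averaged and with all 11 arrays. In FVB129B6, miR-25 lost it with the block, with all 11 arrays and without FVB129B6 replicate 1 or 2 or Balbc replicate 1 or 3. Without FVB replicate 2, which leaves 1 FVB array, the differences in Balbc were -0.48 for miR-185 and -0.46 for miR-25. miR-22, which many tissues make, fell by 1.52 in FVB129B6 (adjusted p = 0.00363, limma), from levels of 8.37 and 8.00 in FVB to 6.41, 6.86 and 6.72. It lost that call with green over red (-0.78, adjusted p = 0.0525) and with no scaling (-0.11, adjusted p = 0.776, both limma). miR-92 had the smallest difference there, -0.54 (adjusted p = 0.0645, limma). None of the 7 was called between Balbc and FVB129B6, where 3.45% of the miRNAs tested were called in either direction and the list's median was 0.17.

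Against FVB glands, 4 of the striated muscle miRNAs ran the other way and the dim miR-499 and miR-208 did not. Muscle also makes miR-486. miR-1, miR-206, miR-133a* and miR-133b, which are made in muscle fibers, were called higher in both Balbc and FVB129B6 than in FVB glands, where 5.75% and 8.05% of all miRNAs tested were, and 0 of the 5 tested were called lower. The whole list had 6 miRNAs on the array. Its summed level was 3.74 and 6.11 on the FVB arrays, 10.03, 10.01 and 9.24 on the Balbc arrays and 8.52, 8.67 and 8.69 on the FVB129B6 arrays, with miR-133b the brightest on every gland array. miR-208, of heart muscle, was not well above background on any array, with mean levels of -3.13 in FVB, -4.42 in Balbc and -4.80 in FVB129B6 glands. miR-499 was well above background only on Balbc replicates 1 and 2 and FVB replicate 1, and differed by -0.35 in Balbc and -1.62 in FVB129B6 from FVB. It was called lower than in FVB with normexp (-0.45 and -0.70) and, in FVB129B6 alone, with no filter, the Balbc pair averaged, the replicate block, all 11 arrays in the fit and without Balbc replicate 3. miR-486 was lowest in FVB129B6 glands, whose muscle list was above that of FVB. Between Balbc and FVB129B6 glands, both were higher in Balbc. There miR-486 differed by 1.39 and the muscle list by a median of 1.15, with 0 of its 5 tested miRNAs called. The part of muscle in the levels of miR-486 was not tested.

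White cell miRNAs set 1 array apart. On Balbc replicate 2, miR-150 of mature lymphocytes had a level of 6.90, miR-142-5p of blood cells in general 7.57 and miR-155 of activated lymphocytes 2.58, against 2.21 to 4.86, 3.77 to 4.81 and -0.46 to 1.00 on the other 7 gland arrays. The myeloid miR-223 had 4.47 there and 4.16 to 4.67 elsewhere. The summed level of the 4 miRNAs was 8.40 on that array, 5.28 and 5.35 on the other Balbc arrays, 6.16 and 5.93 on the FVB arrays and 5.33 to 5.68 on the FVB129B6 arrays. None of the 4 was called between strains under the array median with all arrays. miR-223 was called higher than in FVB with normexp, by 0.79 in Balbc and 0.81 in FVB129B6, and in FVB129B6 also with the miRNAs detected on every array (0.61) and quantile normalization (0.47). With no scaling miR-223 was called higher than in FVB in both strains and miR-155 in Balbc. Without Balbc replicate 2, miR-150 was called lower than in FVB, with differences of -1.79 in Balbc and -1.84 in FVB129B6. The same array had the highest miR-451, miR-144 and miR-486 of the Balbc glands, and its part in these was not tested. Without it miR-451 differed by -1.64 between Balbc and FVB (adjusted p = 0.0117, limma), and by 0.95 between Balbc and FVB129B6 (adjusted p = 0.187).

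Of the endothelium, miR-126-5p was measured, the passenger strand of a vessel miRNA. It was dim, at -4.13 to -1.76 on the gland arrays and well above background on 6 of them. Under the array median with all arrays it was not called between strains. With normexp it was called lower than in FVB, with differences of -0.58 in Balbc and -0.70 in FVB129B6 glands. Without FVB replicate 2, which leaves 1 FVB array, it was also called lower, with differences of -1.76 and -1.79. Of the 6 epithelial miRNAs, the miR-200 family and miR-205, miR-200c alone was called between strains under the array median with all arrays. Its difference was -1.29 between Balbc and FVB (adjusted p = 0.0429, limma), in a contrast where 32.2% of all miRNAs tested were called lower. None of the 6 was called lower there with the 75th percentile, the miRNAs detected on every array, quantile normalization, normexp, green over red, the Balbc pair averaged, the replicate block or all 11 arrays in the fit, and with no scaling 5 of the 6 were called higher in FVB129B6 than in FVB. In Balbc against FVB, miR-200c also lost its call without FVB129B6 replicate 1, 2 or 3 or Balbc replicate 1 or 2. Its adjusted p-values there ranged from 0.0662 to 0.0949 (limma). Without FVB replicate 2 the difference of miR-200c was -0.61. Without FVB replicate 1, miR-200a (-1.29), miR-200b (-1.59) and miR-429 (-1.29) were also called lower in Balbc than in FVB, and miR-200c in FVB129B6 (-1.22). Either fit has 1 FVB array left. With normexp miR-205 was called higher than in FVB in Balbc (1.01), and miR-141 in FVB129B6 glands (1.06). The medians of that list were -0.79 in Balbc against FVB and -0.19 in FVB129B6 against FVB. The summed level of the list was 8.68 and 9.78 in FVB, 8.57, 8.02 and 8.91 in Balbc and 9.11, 8.84 and 9.22 in FVB129B6 glands.

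**Figure D5:**
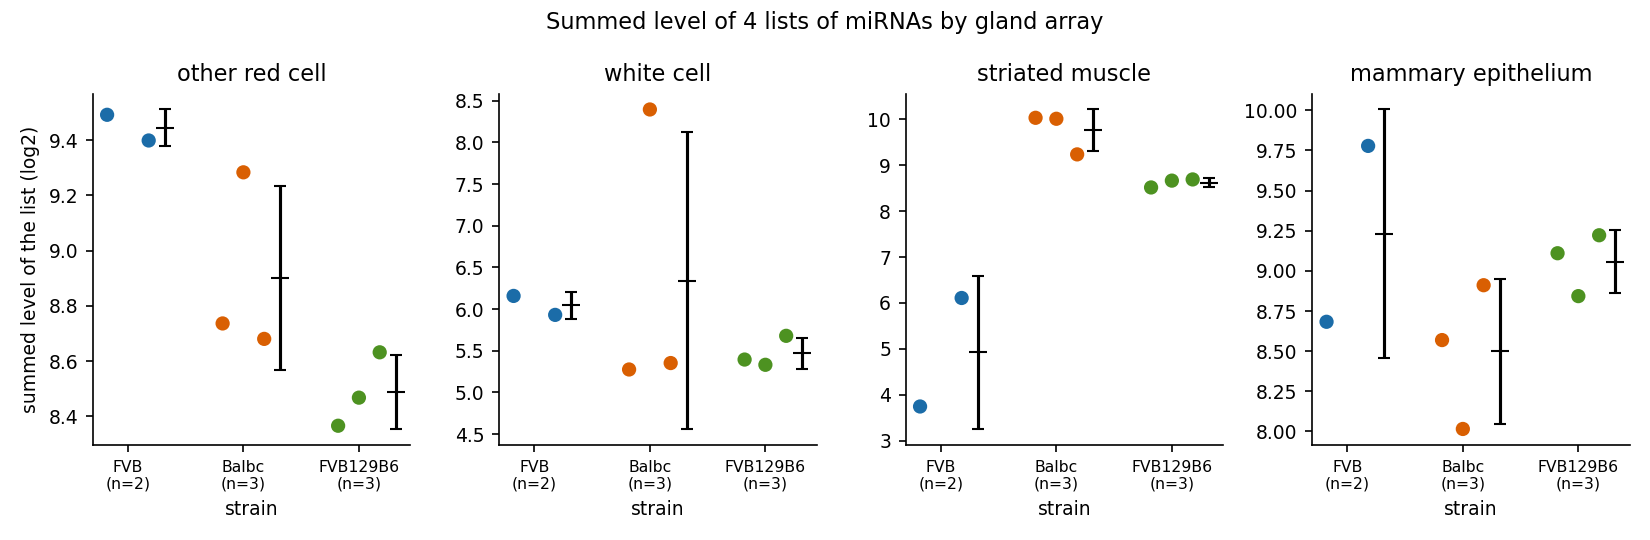
Summed level (log2 of the summed scaled signals) of the other red cell, white cell, striated muscle and mammary epithelium lists on each gland array, by strain; points are arrays, bars the mean and SD, and each panel has its own y axis, which does not start at 0. Balbc replicate 2 stands at 8.40 in the white cell panel, and the FVB arrays stand at 3.74 and 6.11 in the muscle panel, below all others.

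Within strains, all 3 miRNAs were lower on the Balbc array titled M2_2R than on that titled M2_2L. From M2_2L to M2_2R the level changed by -1.06 for miR-451, -1.03 for miR-144 and -0.80 for miR-486, where the median over the 261 miRNAs was 0.04 (SD 0.74). Of the 261 miRNAs 15, 17 and 27 had a lower difference. The lowest of all was miR-150, at -4.69. The 5 muscle miRNAs tested were lower on M2_2R too, with differences from -1.34 (miR-499) to -0.61 (miR-1), as was miR-126-5p (-0.89), and the 6 epithelial miRNAs were higher there, by 0.77 to 0.97. Of the 7 pairs of arrays within a strain, the 3 miRNAs moved together in the 3 Balbc pairs and in both pairs with FVB129B6 replicate 3, and not in the others. The pairs within Balbc and within FVB129B6 share arrays and are not independent. How often other sets of 3 miRNAs move together was not counted. Most miRNAs rose on FVB129B6 replicate 3: the median over all miRNAs was 0.16 against replicate 1 and 0.24 against replicate 2. miR-486 changed by 0.43 and 0.29 there. From FVB replicate 1 to replicate 2 the 3 miRNAs changed by 0.06, -0.38 and 0.68, with a median of 0.16 over all miRNAs, and from FVB129B6 replicate 1 to replicate 2 by -0.0027, -0.56 and 0.14. This comparison of arrays was not tested. With the pair averaged as 1 sample, miR-451 differed by -1.37 between Balbc and FVB (adjusted p = 0.0121, limma), and its difference of 1.21 between Balbc and FVB129B6 passed the threshold (adjusted p = 0.0488).

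In the C3TAg tumors none of the 3 miRNAs was well above background in the green channel on any array. In the red channel, 3, 3 and 2 of the 4 spots of miR-451 were well above background on replicates 1, 2 and 3. For miR-486 these counts were 3, 0 and 1, and for miR-144 0, 0 and 1. miR-451 had levels of -0.14, 0.34 and 0.13, against 6.76 to 9.57 in the glands, and green intensities of 96.8 to 319, against 55400 to 223000. None of its 12 green tumor spots was well above background, beside 1 of 231 negative control spots. Its difference from the mean of the 3 strain means was -8.10 (adjusted p = 2.58e-10, limma), in a contrast that called 52.5% of the miRNAs lower and 37.9% higher. That balance turned with the scaling: 99 were called higher and 137 lower under the array median, 172 and 70 under the 75th percentile and 161 and 76 when scaled on the miRNAs detected on every array. As only a bound is measured in the tumors, each tumor array was set to its dimmest miRNA that passed the background call. On that basis miR-451 was at least 76.2-fold lower in tumors than in the 8 glands, whose mean level was 8.05, and at least 214-fold lower than in the FVB glands, the strain of the tumors. The bound rests on the scaling. Against the 8 glands it was 9.91 with the 75th percentile, 13.7 when scaled on the miRNAs detected on every array, 8.52 with quantile normalization and 121 with normexp. Against the FVB glands these bounds were 22.6, 27.5, 20.9 and 233. With green over red, where the red channel of the tumor arrays carried signal too, the difference was -1.85 (adjusted p = 6.66e-05, limma), far smaller than in the green channel alone.

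miR-486 had levels of 0.91, 0.10 and 1.17 in the tumors, with 2 of 12 green spots well above background. Its difference was -2.53 (adjusted p = 5.42e-06, limma), beside a median of -0.83 over all miRNAs tested. The bound was at least 2.57-fold lower with the array median and 4.32-fold with normexp, and the other scalings gave no fold. The call and the direction were lost with the 75th percentile (0.45, adjusted p = 0.0752) and with the miRNAs detected on every array (0.0059, adjusted p = 0.981, limma), so that neither the size nor the direction of a change in miR-486 is settled. miR-144 had levels of -0.31, -0.02 and 0.30 in the tumors, with 0 of 12 green spots well above background. Its glands were themselves too dim to give a bound, except with normexp, at 1.12-fold. Its difference of -0.81 (adjusted p = 0.0221, limma) was near that median, became 2.17 with the 75th percentile but -2.24 with quantile normalization (adjusted p = 0.00041, limma) and -2.31 with no scaling, and lost its call without C3TAg replicate 1 (-0.66, adjusted p = 0.0981) or replicate 2 (-0.80, adjusted p = 0.0531, limma).

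Of the 7 other red cell miRNAs 5 were called lower in the tumors and 0 higher, with a median of -3.40, and of the 4 white cell miRNAs 2 were called lower and 0 higher, with a median of -2.41, where 52.5% of all miRNAs tested were called lower. miR-25, miR-92, miR-150 and miR-155 were not called. The epithelial list was called lower in 6 of 6, with a median of -4.55. Of the 5 muscle miRNAs 4 were called lower and 1 higher, miR-499 by 3.17, and miR-126-5p of the endothelium was called higher, by 3.28, though neither of these was well above background on any tumor array. Against the FVB glands alone, 2 muscle miRNAs were called higher, miR-499 by 2.51 and miR-206 by 1.74 (adjusted p = 0.0199, limma), and 1 lower, miR-1. These counts rest on the scaling: the 75th percentile moved the median over all miRNAs tested from -0.83 to 2.14, and then 3 red cell miRNAs were called lower and 3 higher (median -0.42), 1 and 1 white cell miRNAs (median 0.56), 5 and 0 epithelial miRNAs (median -1.57), and 2 and 2 muscle miRNAs (median -0.47). Most of these were only bounded: 2, 2 and 4 of the 7 other red cell miRNAs, 1, 0 and 1 of the 4 white cell miRNAs and 2, 1 and 4 of the 6 epithelial miRNAs were well above background on the tumor arrays. The tumor arrays measured few miRNAs, with 38, 15 and 64 of 334 well above background against 209 to 262 on the gland arrays. Tumor, slide, program version and the pregnancy of the gland donors cannot be told apart here.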

How the data were processed

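Total RNA was labeled with Hy3, per the labels, and hybridized to a custom 8 × 15k array designed on miRBase 9.0. The authors deposited Feature Extraction files with green and red intensities after the program's background subtraction and dye normalization (version 10.5.1.1 for glands, 9.5.1.1 for tumors, with an extended dynamic range for glands alone), and quality calls. The deposited log2 table holds the same green signal after 1 constant per array (SD of the difference 0 on each array). The content of the red channel is not given in the sources used here. No spot of the mouse miRNAs was saturated.

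Green intensities were log2 transformed and the median of the 1336 plus-strand mouse spots of the array was subtracted. Outlier spots were left out and spots of a miRNA averaged. A miRNA was tested when at least 50% of its spots were well above background on at least 3 arrays of the fit, which gave 261 miRNAs in both fits. Strains were compared with limma on the 8 gland arrays, and tumors against the average of the strain means on all 11, with Benjamini-Hochberg adjustment over all miRNAs tested and a threshold of 0.05. The ratio to miR-23a and the correlations were tested by exact permutation. For a bound, a tumor level below that of the dimmest detected miRNA on its array was raised to it.

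The 3 miRNAs, the lists, miR-23a and the alternatives were chosen with earlier results of these data known. Named are the 3 miRNAs, miR-23a, list members with the lowest or highest difference, all members of the muscle, white cell and endothelial lists, and the 5 closest patterns; miR-25 and miR-185 were named to complete a count. miR-142-3p, miR-126-3p and miR-133a were listed but had no spot under these names. Alternatives were other scalings, the deposited table, normexp (offset 50), green over red, no filter, outlier spots kept, a floor, other sets of arrays and the replicate number as a block. The replicate numbers did not pair the samples. Sequences came from RefSeq (GRCm38.p6). The fits were checked on simulated data. Software was R 4.3.3 (limma 3.58.1) and Python 3.11.15.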

Additional observations from a re-analysis of the deposited data

Results flagged for a closer look

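The red channel, which only the green over red alternative uses, carried signal for the 3 miRNAs on the C3TAg arrays where the green channel had little. Of the 12 red spots of each miRNA on the tumor arrays, 8 were well above background for miR-451, 4 for miR-486 and 1 for miR-144, against 1.73% of the 231 red negative control spots of the same arrays. The red level of miR-451, the log2 red signal over the red median, was 2.66 ± 0.20 (SD, n = 3) on the tumor arrays. On the gland arrays the red level of miR-451 lay between 8.01 and 8.39, a range of 0.38 beside 2.81 in the green channel. Its strain means were 8.11 in FVB, 8.29 in Balbc and 8.24 in FVB129B6. FVB, the highest strain in the green channel, thus had the lowest red mean. The red levels of miR-144 and miR-486 spanned 0.99 and 0.65 over the gland arrays, against 2.42 and 2.37 in the green channel. What RNA the red channel held was not tested.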

How the results depend on the processing

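The lower miR-451 and miR-486 in FVB129B6 than in FVB glands kept direction under all 20 alternatives, with calls in 20 for miR-451 and in 19 for miR-486 (-0.42 with no scaling, which was chosen after seeing the data). The ratio of miR-451 to miR-23a kept its call under all 13, with FVB minus FVB129B6 values of 1.83 with quantile normalization and 2.34 with green over red, and of 1.80 to 2.16 without 1 array. The lower miR-451 in tumors kept its call under all 24, at -1.85 with green over red and -5.13 or below under the others. The deposited table gave the same values, and the cause of the changes below was not tested.

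miR-451 between Balbc and FVB was not called with the 75th percentile (-0.95), the commonly detected miRNAs (those above background on every array, -0.93), quantile normalization (-0.73), normexp (-0.66) or no scaling (-0.030), and leaving out 1 array gave -1.64 to -1.11. In that contrast miR-144 turned to 0.60 with no scaling, and miR-486 to 0.0069 with the commonly detected miRNAs, 0.42 with normexp and 0.91 with no scaling, which was called. miR-144 between FVB129B6 and FVB lost its call with the commonly detected miRNAs (-1.13), normexp (-0.70) and no scaling (-0.24), and leaving out 1 array gave -1.95 to -1.37. Between Balbc and FVB129B6, miR-451 gained a call with the Balbc pair averaged (1.21) and all 11 arrays in the fit (1.20), and ranged from 0.95 to 1.48 without 1 array. miR-486 lost its call there with the commonly detected miRNAs (1.32) and normexp (1.37), and ranged from 1.23 to 1.62 without 1 array. With strain means removed the correlations were 0.868, 0.811 and 0.515.

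In the tumor contrast miR-144 turned to 2.17 with the 75th percentile, 1.72 with the commonly detected miRNAs and 0.998 with signals raised to a floor, which lifts tumor arrays above the glands by construction. It was -0.46 and not called with green over red, and -0.96 to -0.66 without 1 array. miR-486 turned to 0.45 with the 75th percentile and 0.0059 with the commonly detected miRNAs.

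The count of miRNAs called between Balbc and FVB, 99, became 47 with the 75th percentile, 54 with quantile normalization, 65 with green over red, 151 with no scaling, 178 without the filter and 65 with all 11 arrays. The count of 103 between FVB129B6 and FVB became 39 with green over red, 179 with no scaling and 191 without the filter. The count of 9 between Balbc and FVB129B6 became 5 with the commonly detected miRNAs, 5 with quantile normalization, 0 with normexp (limma, 50 at an unadjusted p under 0.05), 4 with green over red and 17 with all 11 arrays, and ranged from 0 to 16 without 1 array: 0 without FVB129B6 replicate 2, Balbc replicate 2 or FVB replicate 2, and 16 without Balbc replicate 1.

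With the replicate number as a block, miR-486 between Balbc and FVB129B6 was 1.39 and lost its call (adjusted p = 0.0514, limma), and the count of that contrast became 14. The block changed no other call of the 3 miRNAs. These numbers name the samples and do not pair them: deviations from the group means correlated on average by 0.0440 for the 15 same-numbered pairs of arrays between groups, and by -0.0221 for the 30 others. Signal over background limits the tumor values, where the green channel measured no level of the 3 miRNAs.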
